A study of Mus musculus with 119 samples.

Results

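Satellite cells, the stem cells of skeletal muscle, were profiled by RNA-seq 4 days after tamoxifen in mice labelled as lacking the transcription factors FoxO1, FoxO3a and FoxO4 (KO) and in mice labelled wild type (WT). The comparison joined 2 deposited count tables by gene symbol, one from young and one from old mice, and used 4 KO and 4 WT libraries of the 119 samples in the series. The young table held 2 FoxO1,3a,4KO-Pax7ROSAYFP and 2 FoxO1,3a,4WT-Pax7ROSAYFP libraries, from mice that also carried a fluorescent reporter of the Pax7 lineage. The old table held 2 FoxO1,3a,4KO and 2 FoxO1,3a,4WT libraries, with no reporter in the label. Cells had been sorted from uninjured muscle as negative for CD45, CD31 and Sca-1 and positive for α7-integrin, over the whole CD34 range, and lysed without culture. The 4-day interval and the tamoxifen stand in the names of the tables, while the labels' treatment text speaks only of untreated WT animals. Neither the Cre driver, the sex of the mice, their age in months nor the number of animals behind a library is given in the labels, and age, reporter allele and table change together.

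FoxO proteins are forkhead transcription factors that act downstream of insulin and IGF signalling. When AKT is active it phosphorylates them and keeps them out of the nucleus, and when AKT is quiet they enter the nucleus and switch on genes for cell cycle arrest, autophagy, antioxidant defence and a fasting type of metabolism. In resting satellite cells they are known for their part in keeping the quiescent state, together with Notch signalling.

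With both ages joined and the table as a block, no gene passed the threshold. The test was edgeR's quasi-likelihood F-test with Benjamini-Hochberg adjustment over 13975 genes not on chromosomes X or Y, of which 0 (0.0%) had an adjusted p under 0.05 and the smallest adjusted p was 0.203. An unadjusted p under 0.05 was reached by 1246 genes (8.92%) with the higher level in KO and by 1172 genes (8.39%) with the lower level. DESeq2 on the same libraries gave an adjusted p under 0.05 to 354 higher (3.48%) and 223 lower (2.19%) of the 10182 genes for which it gave an adjusted p. In 1214 genes (8.69%) every KO library lay above every WT library of its own table in both tables, and in 999 genes (7.15%) every KO library lay below. These shares are the background against which the groups of genes are given. All fold differences here are log2 KO minus WT, and a gene with no adjusted p under 0.05 is described by its values.

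In Foxo1 and Foxo4, 1 library labelled WT stood near the KO libraries of its table. Counts per library came to 17.98 to 19.46 M in 5 of them and to 38.62 to 78.09 M in old WT 9, old KO 5 and old KO 2 (libraries are numbered as in the tables). Levels of Foxo1 (chr3:52268336-52353221, plus strand, mm10) in CPM, read counts scaled to a common library size (TMM), were 98.7 and 79 in young WT 1 and 2 and 28.8 and 57 in young KO 1 and 2. In the old table they were 80.8 and 30.3 in WT 7 and 9, against 27 and 22.6 in KO 2 and 5. The library labelled WT 9 was therefore close to the KO libraries. Foxo4, on chromosome X (chrX:101254528-101260873, plus strand), gave the same picture, with 45.1 and 8.96 CPM in old WT 7 and 9 and 6.25 and 6.93 in old KO, and with 52.2 and 58.3 CPM in young WT and 17 and 26.7 in young KO. Foxo3 (chr10:42181841-42276755, minus strand), which encodes FoxO3a, was not lower in KO: young KO 24.4 and 25.7 CPM, young WT 19.3 and 22.1, old KO 26.7 and 28.8, and old WT 20.5 and 16.1. Over both tables the log2 difference was −1.10 (SE 0.29) for Foxo1 (unadjusted p = 0.00374, edgeR), −1.67 (SE 0.41) for Foxo4 and 0.44 (SE 0.13) for Foxo3. Counts over a whole gene do not show whether an exon was removed. Foxo3 therefore does not check the deletion, and Foxo1 and Foxo4 do not settle whether the label of WT 9 is right. Foxo6, which was not targeted, had a difference of 0.03 (SE 0.21). Without the library labelled WT 9, 9 genes had an adjusted p under 0.05, named further on.

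**Figure D1:**
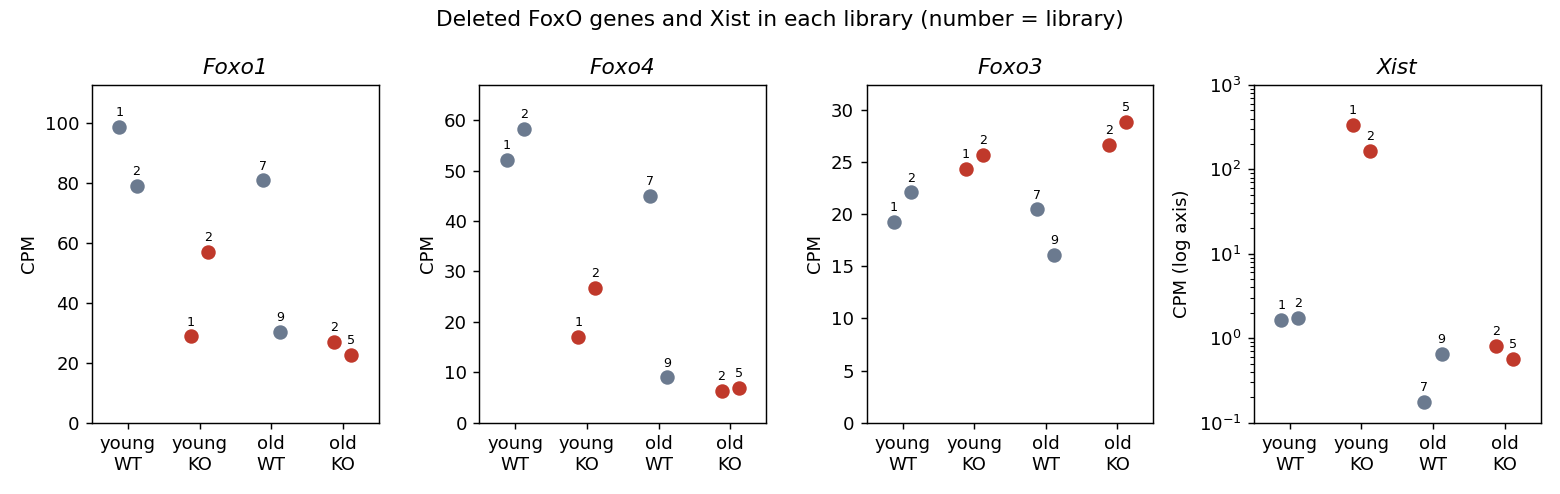
CPM of Foxo1, Foxo4, Foxo3 and Xist (logarithmic axis for Xist only) in the 8 libraries, grouped by age and genotype; each point is 1 library with its number in the table. Old WT 9 sits at the KO level for Foxo1 and Foxo4, and Xist is high in the young KO libraries.

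A further difference between the libraries concerned the sex chromosomes. Xist, the RNA that coats the inactive X chromosome of females, stood at 333 and 167 CPM in young KO 1 and 2 and at no more than 1.74 CPM in the other 6 libraries. The Y-linked gene Ddx3y was present in all 8, with young KO 265 and 308 CPM, young WT 220.3 and 316, old KO 419 and 506, and old WT 315 and 315. Uty, Kdm5d and Eif2s3y, also on Y, were detected in all 8 as well, at 13 CPM or more. The young KO libraries thus held both Xist and Y-linked RNA. With X and Y genes kept in the adjustment, Xist was the 1 gene with an adjusted p under 0.05 in the young table (edgeR, adjusted p = 0.00308). Genes on X and Y took no part in the calls. In the young table genotype and the presence of Xist cannot be told apart. The part of this difference in genes of other chromosomes was not tested.

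Libraries also differed in how their counts were spread over genes of different length, and this moved with the genotype. Tested genes were put into quintiles of exon length (13449 genes, or 96.2%, had a length). In the quintile of the longest genes, 7.53 kb and over, the median log2 difference was 0.13 in the young and 0.27 in the old table, and in the shortest, up to 2.4 kb, it was −0.18 and −0.26. The longest quintile held 708 of the higher genes with an unadjusted p under 0.05 and 61 of the lower, and the shortest held 27 and 450. By library, the longest quintile took 28.7 and 27.5% of the CPM in young KO 1 and 2 and 22.4 and 28.2% in young WT 1 and 2. It took 25.0 and 27.1% in old KO 2 and 5 and 22.1 and 19.6% in old WT 7 and 9. Young WT 2 was thus like the KO libraries, and young WT 1 like the old WT libraries. Leaving out young WT 2 raised the number of genes with an adjusted p under 0.05 from 0 to 656, and leaving out young WT 1 left it at 0. The part of this difference in the results was not tested. Median lengths of the gene lists are given here or beside their values. Over all tested genes it was 4.37 kb. It was 4.32 kb for quiescence, 5.01 kb for Notch, 6.94 kb for IGF, PI3K and AKT, and 3.25 kb for myogenic commitment. For mature fibre, cell cycle and interferon genes it was 3.07, 4.22 and 3.62 kb. For satellite cell, fibro-adipogenic and endothelial markers it was 3.6, 4.61 and 4.35 kb. For immune, mural and Schwann cell markers it was 1.57, 4.55 and 3.25 kb.

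**Figure D2:**
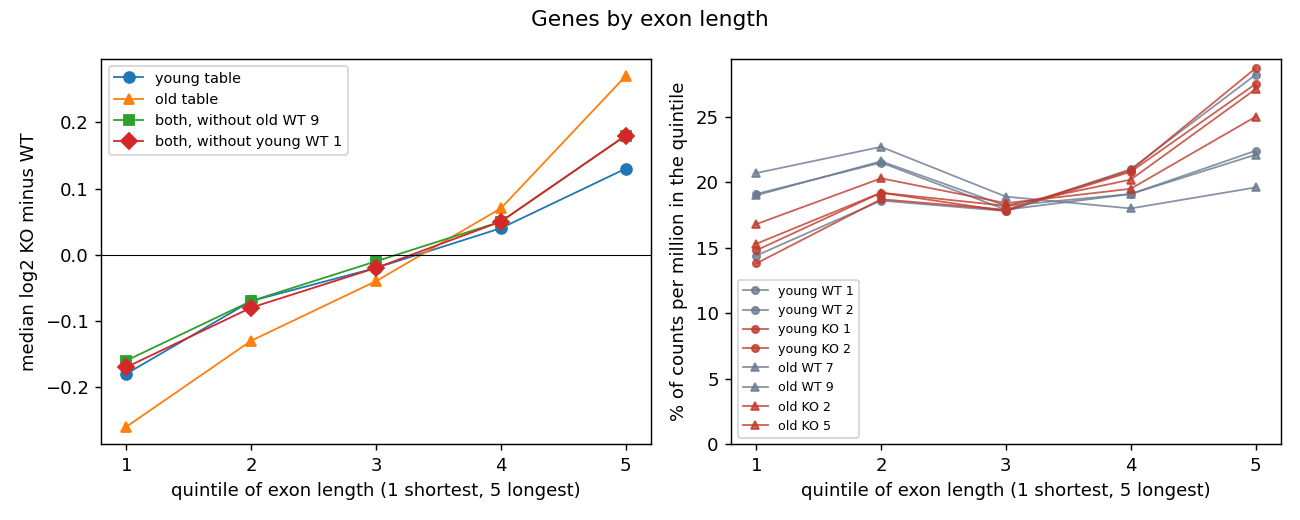
Left, median log2 KO minus WT of tested genes by quintile of exon length, in the young table, in the old table, and over both without old WT 9 or without young WT 1; right, share of the CPM of each library that fell in each quintile. Medians go from −0.18 to 0.13 in the young and from −0.26 to 0.27 in the old table, and young WT 2 follows the KO libraries.

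Genes described as FoxO targets stood mostly lower in KO. Of 57 listed genes in the tables, 48 had enough counts to be tested. None had an adjusted p under 0.05. By unadjusted p 18 were lower and 3 higher (background 8.39% and 8.92%). In 12 of the 48 (25.0%) every KO library lay below every WT library in both tables, where over all genes the share was 7.15%. In 3 it lay above (6.25%, background 8.69%). The median log2 difference of the list was −0.17 over both tables, −0.18 in young and −0.29 in old, with −0.01 over all genes each time. The list's median length, 4.63 kb, falls in the middle length quintile, whose median difference was −0.02. Without old WT 9 there were 21 lower and 5 higher of 51 by unadjusted p (background 9.74% and 9.28%), and without young WT 1 there were 14 and 1 of 49 (background 4.55% and 5.81%). Without young WT 2 there were 17 and 6 of 51, of which 6 and 1 had an adjusted p under 0.05 (edgeR). Over all 14592 genes of the run without young WT 2, 1616 were lower and 1793 higher by unadjusted p. Of these genes 216 and 440 had an adjusted p under 0.05 (edgeR). The backgrounds of the runs with a library left out hold for the lists below as well. DESeq2 on all 8 libraries called 6 lower and 1 higher of 47 (background 2.19% and 3.48%).

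Among the targets linked to growth arrest, Gadd45a (chr6:67035096-67037457, minus strand), a stress sensor that halts the cell cycle and aids DNA repair, had the smallest p. Its levels were: young KO 177 and 226 CPM, young WT 413 and 335, old KO 243 and 216, and old WT 579.7 and 342. All 4 KO libraries lay below all 4 WT libraries, with a log2 difference of −0.95 (SE 0.17) and an unadjusted p of 0.000233 (edgeR, adjusted p = 0.203). It was also 1 of the 9 genes with an adjusted p under 0.05 without old WT 9 (edgeR, adjusted p = 0.0437), and leaving out 1 library at a time moved the difference between −1.07 and −0.76. Cdkn2d, an inhibitor of the CDK4 and CDK6 kinases, differed by −0.73 (SE 0.22), with the groups apart in both tables. Cdkn1b, which encodes the CDK inhibitor p27, differed by −0.39 (SE 0.15), with young WT 2 inside the range of young KO. Ccng2, an atypical cyclin linked to arrest, differed by −0.40 (SE 0.14), with an overlap in the young table. Ccnd2, a D-type cyclin that FoxO factors are known to repress, was the member on the higher side with the smallest p: young KO 7.48 and 7.12 CPM, young WT 2.03 and 4.13, old KO 31.5 and 28.9, and old WT 16.7 and 18.6, a log2 difference of 0.98 (SE 0.20).

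Targets of the metabolic and survival arms went different ways. Txnip, which binds thioredoxin and limits glucose uptake, measured 141 and 181 CPM in young KO and 232 and 221 in young WT, and 178 and 142 in old KO and 376 and 203 in old WT. The groups did not overlap in either table and the log2 difference was −0.67 (SE 0.19). Pik3ip1, an inhibitor of PI3K, was low in counts and differed by −0.98 (SE 0.27), again with no overlap. Cited2, a transcriptional co-regulator, differed by −0.95 (SE 0.27): young KO 185 and 211 CPM, young WT 287 and 299, old KO 134 and 111, and old WT 449.6 and 170.4. In the old table WT 9 stood nearer to the KO libraries than to WT 7. Pdk4, a kinase that spares glucose by shutting pyruvate dehydrogenase, had 1700.2 and 369 CPM in old WT 7 and 9 and 462 and 419 in old KO, so that WT 9 lay below both KO libraries. The proapoptotic gene Bbc3 (PUMA) differed by −0.59 (SE 0.18) with no overlap, and the transcription factor Klf2 by −0.65 (SE 0.16). Several well known targets showed little difference: Irs2, the insulin receptor substrate, 0.08 (SE 0.18), Insr, the insulin receptor, 0.11 (SE 0.13), Fbxo32, the muscle ubiquitin ligase atrogin-1, −0.01 (SE 0.19), Cat, catalase, 0.10 (SE 0.15), and Bcl2l11, which encodes the proapoptotic BIM, −0.06 (SE 0.12). Sesn2 and Sesn3, 2 of the sestrins that restrain mTORC1, lay higher, by 0.54 (SE 0.19) and 0.51 (SE 0.19), while Sesn1 lay lower, by −0.31 (SE 0.11).

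Promoter windows were searched for the forkhead motif TGTTTAC or its reverse complement GTAAACA, which are the same site read from either strand. The windows ran from 250 bases before to 50 bases after an annotated start, from RefSeq on GRCm38.p6, and 3.65% of all 32851 windows held a match. Of 10420 tested genes with a window, 3.05% had a match in at least 1 of their windows. Among the FoxO target list it was 7 of 40 (17.5%), and the list holds genes known as direct FoxO targets. Among the genes with every KO library below every WT library it was 37 of 759 (4.87%), and among those above 23 of 912 (2.52%). Of the 7 targets with a match, Txnip, Bbc3 and Sesn1 lay lower in KO with no overlap, and Bcl2l11, Hbp1, Mxi1 and Tcf7 did not. The upstream sequences of Txnip (plus strand, chr3:96557707-96557956) and Bbc3 (plus strand, chr7:16310011-16310260) are shown because they carry the motif before the start, 121 and 167 bases from it to the first base of the match. Short windows are shown for Sesn1 (plus strand, chr10:41810586-41810612) and for Adamts13 (plus strand, chr2:26973421-26973447), which also lay lower, and for Jmy (minus strand, chr13:93499759-93499782), which lay higher, where the motif lies just after the start. The motif is in capitals.
Txnip: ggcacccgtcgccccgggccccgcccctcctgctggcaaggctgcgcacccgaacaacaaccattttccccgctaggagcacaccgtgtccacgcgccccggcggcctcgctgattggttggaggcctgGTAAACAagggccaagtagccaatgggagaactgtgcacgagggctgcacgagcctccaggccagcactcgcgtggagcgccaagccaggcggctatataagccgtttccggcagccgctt
Bbc3: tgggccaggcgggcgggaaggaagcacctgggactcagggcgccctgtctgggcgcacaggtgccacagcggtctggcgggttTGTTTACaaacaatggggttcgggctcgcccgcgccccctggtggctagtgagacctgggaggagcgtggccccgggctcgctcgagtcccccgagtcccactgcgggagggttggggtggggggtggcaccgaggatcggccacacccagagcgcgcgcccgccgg
Sesn1: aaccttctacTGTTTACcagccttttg
Adamts13: gctcccaagaGTAAACActgcctgatg
Jmy: cacgtgcccgTGTTTACgtccctc

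A match is a description of the letters and not evidence of binding.

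Genes of the quiescent state were split. Of 44 tested genes, 9 (20.5%, background 7.15%) had every KO library below every WT library. In 3 (6.82%, background 8.69%) every KO library lay above. By unadjusted p 15 were lower and 4 higher (background 8.39% and 8.92%), none with an adjusted p under 0.05. Leaving out old WT 9, young WT 1 or young WT 2 gave 17, 8 and 15 lower and 10, 3 and 7 higher. Spry1, an inhibitor of receptor tyrosine kinase signalling that holds satellite cells at rest, measured 160.3 and 246 CPM in young KO and 368 and 373 in young WT, and 96.8 and 86.3 in old KO and 271 and 119.9 in old WT. The groups were apart and the log2 difference was −0.98 (SE 0.23) (unadjusted p = 0.00175, edgeR; DESeq2 adjusted p = 0.00585). Gas1, a growth arrest protein at the cell surface, differed by −0.78 (SE 0.20) and Gpx3, an extracellular glutathione peroxidase, by −0.77 (SE 0.21), both with no overlap. The chemokine receptor Cxcr4 had 595 and 171 CPM in old WT 7 and 9 against 149 and 109.6 in old KO, and its difference, −1.12 over all libraries, ran from −1.31 to −0.56 when 1 library was left out. On the higher side were Notch1 and Notch3, with 0.44 (SE 0.13) and 0.78 (SE 0.25), both apart in both tables, and Tenm4, a teneurin adhesion protein, with 0.83 (SE 0.23).

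Cd34, the surface protein used in the sort, had young KO 111 and 148 CPM, young WT 269 and 158, old KO 55.9 and 46.1, and old WT 139 and 48.8. Old WT 9 fell within the range of old KO, and the log2 difference was −0.80 (SE 0.29). Pax7, the transcription factor that marks satellite cells, had young KO 161 and 144 CPM, young WT 166 and 197, old KO 78.3 and 130.1, and old WT 70.4 and 42.2. Young KO libraries lay below young WT and old KO above old WT, with −0.25 and 0.89 on the log2 scale, and the test of that difference between ages gave an unadjusted p of 0.023 and an adjusted p of 1 (edgeR). Over the 10 satellite cell markers the summed level was 6458 and 6486 CPM in young KO, 6685 and 6399 in young WT, 7567 and 7237 in old KO, and 8170 and 8525 in old WT. The defining markers were present in all 8 libraries, but not all at like levels in KO and WT. In 3 of the 10 every KO library lay below every WT library in both tables, and in 0 above (background 7.15% and 8.69%). By unadjusted p 3 were lower and 0 higher (edgeR, background 8.39% and 8.92%), none with an adjusted p under 0.05. Of the 10 differences 5 were above and 5 below 0, with a median of −0.02.

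In the Notch pathway, of 34 tested members 4 were higher and 3 lower by unadjusted p (background 8.92% and 8.39%). The median was 0.03. With old WT 9, young WT 1 or young WT 2 left out the counts were 6, 4 and 7 higher and 5, 1 and 4 lower. The receptor Notch1 measured 419.6 and 370.4 CPM in young KO and 297 and 341 in young WT, and 409.8 and 525 in old KO and 275 and 356 in old WT. Adam10, the protease that cuts activated Notch, differed by 0.34 (SE 0.11) with no overlap. Dtx3, a member of the Deltex family of ubiquitin ligases, lay lower, by −0.42 (SE 0.10), and the effector Hes1 by −0.40 (SE 0.14).

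The IGF, PI3K and AKT pathway acts upstream of the FoxO factors, and its 44 tested genes had a median of 0.05. By unadjusted p 6 of the 44 were higher and 4 lower (background 8.92% and 8.39%). Those counts were 6, 2 and 9 higher and 6, 3 and 6 lower without old WT 9, young WT 1 or young WT 2. The ligand Igf1 had young KO 49 and 45.9 CPM, young WT 14.7 and 31.8, old KO 61.3 and 82.8, and old WT 7.44 and 49.8, and the binding protein Igfbp5 had young KO 1299 and 744 CPM, young WT 319 and 670.1, old KO 2548 and 3556, and old WT 288 and 1721. For both genes the groups were apart in both tables, while the ratio of WT 9 to WT 7 was larger than that of either old KO library to WT 9. Their log2 differences were 1.17 (SE 0.45) and 1.32 (SE 0.47). The scavenger receptor Igf2r differed by 0.47 (SE 0.14) and the phosphatase Phlpp2, which removes phosphate from AKT, by 0.37 (SE 0.13). The receptor Igf1r itself differed by 0.01 (SE 0.17).

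Immediate early and dissociation stress genes showed the largest share of separated members among the lists given here. Of 52 tested genes 17 (32.7%, background 7.15%) had every KO library below every WT library. In 2 (3.85%, background 8.69%) every KO library lay above. By unadjusted p 25 were lower and 1 higher (background 8.39% and 8.92%). The median was −0.25, and DESeq2 called 14 lower and 1 higher (background 2.19% and 3.48%). Members are short, with a median length of 2.97 kb, in the quintile whose median difference was −0.1. Cebpd (chr16:15887286-15891031, plus strand), a transcription factor of the acute phase response, had young KO 419 and 588 CPM, young WT 1066 and 737, old KO 493 and 404, and old WT 764 and 779, a log2 difference of −0.81 (SE 0.15). Socs3, a feedback inhibitor of JAK and STAT signalling, differed by −0.60 (SE 0.13). The AP-1 subunits went both ways: Junb differed by −0.57 (SE 0.14) and Jun by −0.39 (SE 0.13), while Fosl1 was higher by 0.58 (SE 0.14). Ctgf, a matricellular protein and a reporter of YAP activity, had 513 and 158 CPM in old WT 7 and 9 and 124 and 131 in old KO. Without young WT 1 the list had 18 lower and 1 higher by unadjusted p, without old WT 9 it had 22 and 2, and without young WT 2 it had 26 and 3.

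Autophagy and lysosome genes, many of them under FoxO control in muscle fibres, had 36 tested members. In 11 (30.6%, background 7.15%) every KO library lay below every WT library, and in 0 (background 8.69%) above. By unadjusted p 11 were lower and 0 higher (background 8.39% and 8.92%). 31 of the 36 had a negative difference and the median was −0.18, at a median length of 4.34 kb. Without old WT 9, young WT 1 or young WT 2 the median was −0.21, −0.18 and −0.21. The ubiquitin-like proteins that coat autophagosome membranes lay lower: Map1lc3b had young KO 106 and 139 CPM, young WT 221 and 144, old KO 120.1 and 95.9, and old WT 256 and 152, a log2 difference of −0.74 (SE 0.20), and Map1lc3a and Gabarapl1 differed by −0.66 (SE 0.18) and −0.46 (SE 0.15). Tfeb, the transcription factor that drives lysosome genes, differed by −0.56 (SE 0.15), and the lysosomal protease Ctsl by −0.62 (SE 0.18). Antioxidant genes had 8 of 33 members below (24.2%, background 7.15%) and 1 above (3.03%, background 8.69%). By unadjusted p 10 were lower and 3 higher (background 8.39% and 8.92%). Their median was −0.18 and their median length 3.05 kb. Without the same 3 libraries in turn the median was −0.15, −0.11 and −0.26. Gpx4, the peroxidase that repairs oxidised membrane lipids, differed by −0.57 (SE 0.14). Sod2, the mitochondrial superoxide dismutase and a classical FoxO target, differed by −0.18 (SE 0.12), with no separation.

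Matrix and adhesion genes lay mostly higher in KO, with the highest median of the pathway lists. 37 of 42 tested members had a positive difference, 13 of them with an unadjusted p under 0.05 against 1 lower (background 8.92% and 8.39%). The 13 became 26, 7 and 18 without old WT 9, young WT 1 or young WT 2. In 8 (19%, background 8.69%) of the 42 every KO library lay above. The median was 0.34, and the members were long, with a median of 7.14 kb. Vcan (chr13:89655312-89742509, minus strand), a large proteoglycan of provisional matrix, had young KO 58.9 and 44.7 CPM, young WT 19.7 and 39.1, old KO 43.1 and 43.9, and old WT 13 and 14.7, a log2 difference of 1.23 (SE 0.24). The laminin chain Lamc1 differed by 0.60 (SE 0.15) and tenascin C, Tnc, by 1.09 (SE 0.28), both with no overlap. Lamb1 had 60.9 and 148 CPM in old WT 7 and 9 and 145 and 146 in old KO. It reached an adjusted p of 0.0422 without old WT 9 (edgeR). The summed level of the 24 fibro-adipogenic markers, which satellite cells express in part, was 2634 and 2911 CPM in young KO, 2189 and 2579 in young WT, 4528 and 4446 in old KO, and 3004 and 5317 in old WT. Of 22 tested markers 15 lay above 0 and 7 below, with a median of 0.38. By unadjusted p 3 were higher and 0 lower (background 8.92% and 8.39%). In 3 (13.6%, background 8.69%) every KO library lay above. The part of these markers in the matrix values was not tested.

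Genes of myogenic commitment had 9 higher and 2 lower of 36 by unadjusted p (background 8.92% and 8.39%). Their median was 0.26, with 0.38 in young and 0.01 in old. The number higher was 15, 5 and 5 without old WT 9, young WT 1 or young WT 2. Ncam1, the neural cell adhesion molecule of activated satellite cells and nerve, differed by 0.47 (SE 0.13), and the transcription factors Mef2a and Mef2c by 0.41 (SE 0.12) and 0.89 (SE 0.27). Myog, the factor that starts terminal differentiation, had 24.4 and 12.4 CPM in young KO and 0.494 and 2.39 in young WT, but 16.2 and 7.68 in old KO and 3.31 and 26.6 in old WT, so that the old groups overlapped. The unadjusted p for a difference between the ages was 0.016 and the adjusted p 1 (edgeR). Myod1 differed by −0.08 (SE 0.13) and Myf5 by −0.31 (SE 0.14). Of 28 tested genes of the mature fibre 15 lay above 0 and 13 below, with a median of 0.04. By unadjusted p 4 were higher and 2 lower (background 8.92% and 8.39%). The 32 listed genes summed to 1775 and 1735 CPM in young KO and 1946 and 1837 in young WT. In old KO they summed to 1768 and 1686 CPM and in old WT to 2278 and 2088. Every KO sum was thus below every WT sum. Neb, the giant thin-filament protein nebulin, lay higher in KO. It had 31.5 and 22.8 CPM in young KO and 6.86 and 16.4 in young WT. In old KO it had 34.6 and 40.2 CPM and in old WT 12.4 and 17.1, a difference of 1.28 (SE 0.25). Among cell cycle genes, 1 of 43 tested members was higher and 4 were lower by unadjusted p (background 8.92% and 8.39%). The median was 0.06. Without the same libraries in turn the counts were 5, 3 and 3 higher and 3, 2 and 5 lower. The proliferation marker Mki67 had 7.17 CPM in young KO 1 and no more than 4.13 CPM in each of the other 7 libraries.

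Ribosomal protein genes had a lower median in KO, −0.32, with 71 of 72 negative. In none of them were the groups apart in both tables (background 7.15% below and 8.69% above). Their summed level was 65850 and 71540 CPM in young KO, 104700 and 61780 in young WT, 93170 and 83950 in old KO, and 107300 and 121300 in old WT. Young WT 1 was high and young WT 2 lay below both young KO libraries. By unadjusted p 24 were lower and 0 higher (background 8.39% and 8.92%). Without old WT 9, young WT 1 or young WT 2 the number lower was 3, 1 and 66. In the last case 28 had an adjusted p under 0.05 (edgeR). Rps21, a protein of the small subunit, differed by −0.53 (SE 0.19). Genes of oxidative phosphorylation had a median of −0.27, with 13 of 65 lower and 0 higher by unadjusted p (background 8.39% and 8.92%). The number lower was 6, 3 and 25 without the same 3 libraries in turn. Ndufs7, a complex I subunit, differed by −0.52 (SE 0.14). Both lists hold short genes, with median lengths of 1.81 and 1.87 kb. Interferon response and antigen presentation genes had 4 higher and 3 lower of 44 by unadjusted p (background 8.92% and 8.39%). Those counts were 4, 5 and 4 higher and 1, 1 and 5 lower without the same 3 libraries in turn. The interferon-induced GTPase Iigp1 differed by 0.54 (SE 0.13) and the exonuclease Isg20 by −0.82 (SE 0.21).

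**Figure D3:**
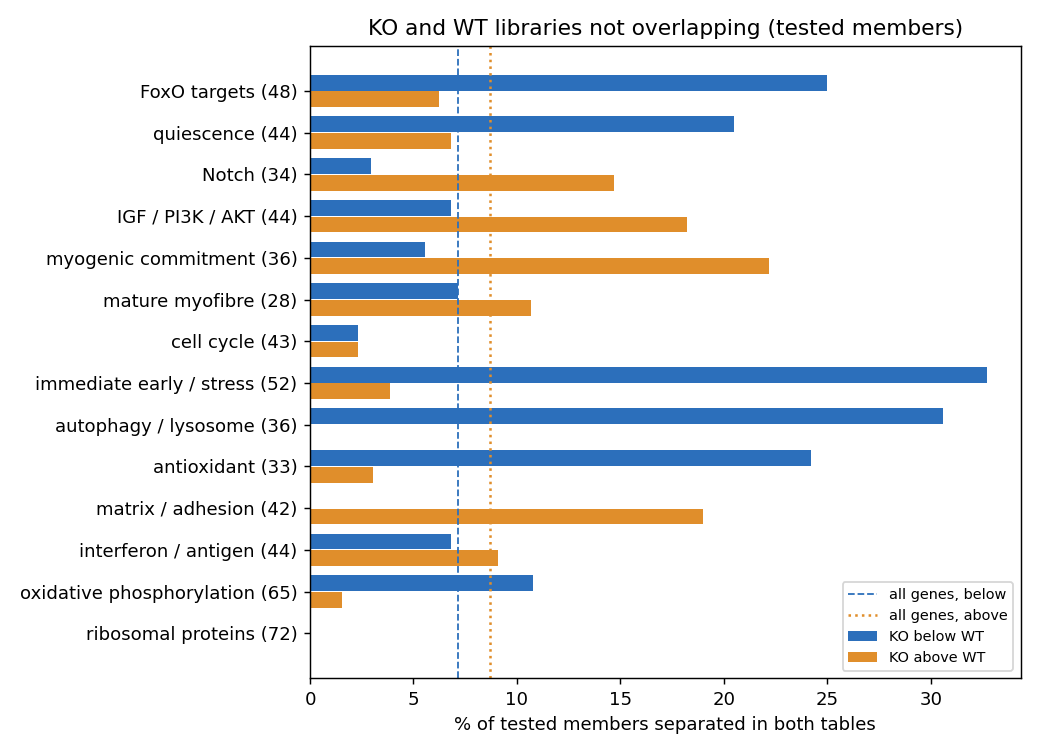
Share of the tested members of each gene list (number tested in brackets) for which every KO library lay below (blue) or above (orange) every WT library in both tables, with the shares over all tested genes as lines (7.15% below, 8.69% above). Immediate early (32.7%), autophagy (30.6%) and FoxO target genes (25.0%) have the highest shares below among the pathway lists, and myogenic commitment (22.2%) and matrix genes (19%) the highest above.

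Markers of other cell types were summed in each library. The 24 immune markers summed to 26 to 59.9 CPM in KO and 40.3 to 70.9 in WT, with 1 at 0 in all 8 libraries. The 16 endothelial markers summed to 190.1 to 456 CPM in KO and 181 to 322 in WT, highest in young KO 2. There Cdh5 and Flt1, an endothelial cadherin and a VEGF receptor, stood at 35.6 and 34.4 CPM. Of the 16, 14 had a difference above 0 and 2 below. Their median was 0.31, with 0.74 in young and 0.05 in old. By unadjusted p 3 were higher and 0 lower (background 8.92% and 8.39%). In 0 were the groups apart in both tables (background 8.69% above and 7.15% below). The 13 mural markers summed to 2497 to 3489 CPM in KO and 2446 to 3185 in WT, a list that holds Notch3 and Des, which satellite cells express. The 16 Schwann cell markers summed to more in KO than in WT in both tables, at 438 to 439.7 CPM against 399 to 414 in young and 1367 to 1475 against 1277 to 1297 in old, with 9 of 14 tested above 0 and 5 below, and 21.4% with every KO library above (background 8.69%), and the 8 red cell markers reached 8.06 CPM at most, with 4 at 0 in all 8 libraries. Their part in the results was not tested. In bulk samples fewer cells of a type and less RNA per cell cannot be told apart.

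The genes with the smallest p over both tables were looked at beyond the lists: 12 that lay higher and 12 that lay lower, with a mean of at least 8 CPM and no overlap in either table, chosen after their values were seen. Exon length was not taken into account in the choice. Over all genes, higher levels in KO went with long and lower levels with short genes. The part of length in these 24 was not tested. On the lower side, beside Gadd45a and Cebpd, were Gdf15 (chr8:70629393-70632456, minus strand), a stress-induced cytokine, with young KO 16.9 and 18.5 CPM, young WT 33.2 and 26.8, old KO 36.3 and 31.1, and old WT 45.9 and 54.6, a difference of −0.67 (SE 0.13), and Echdc2, an enoyl-CoA hydratase family protein, with −0.73 (SE 0.13). Adamts13, the protease that cuts von Willebrand factor, differed by −1.23 (SE 0.25), Cbx7, a Polycomb protein, by −0.75 (SE 0.15), Irf3, an interferon regulatory factor, by −0.55 (SE 0.11), and Vwa1, a matrix protein of basement membranes, by −0.67 (SE 0.13). Rabac1, Gpn3, Tceb2 and Fam46b made up the rest, between −0.98 (SE 0.19) and −0.58 (SE 0.12).

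On the higher side, Rasal2 (chr1:157135182-157412595, minus strand), a RAS GTPase activating protein, had the smallest p of all with 0.000137 (edgeR, adjusted p = 0.203). Its levels were young KO 65.2 and 50.1 CPM, young WT 38.4 and 33, old KO 62.2 and 66.3, and old WT 41.5 and 35.5, a difference of 0.72 (SE 0.12). Nid1, which links laminin and collagen in basement membranes, had young KO 70.3 and 81.4 CPM, young WT 49.5 and 60.3, old KO 182 and 170.4, and old WT 115 and 105, a difference of 0.57 (SE 0.11). Ahnak, a giant scaffold protein, differed by 0.70 (SE 0.14), Abi3bp, a matrix protein, by 0.74 (SE 0.14), Homer1, a scaffold of calcium signalling, by 1.06 (SE 0.21), and the kinases Hipk2 and Zak by 0.91 (SE 0.18) and 0.57 (SE 0.10). Fem1b, a ubiquitin ligase substrate receptor, Pcdh7, a protocadherin, and Jmy, an actin nucleator and p53 cofactor, differed by 0.54 (SE 0.11), 0.67 (SE 0.14) and 0.48 (SE 0.10), and Neb and Vcan completed the 12. For each of the 24 the direction was the same in every run with 1 library left out. That outcome was fixed by choosing genes with no overlap, so it is no check. With the filter on low counts none of the 24 reached an adjusted p under 0.05 on all 8 libraries (edgeR). With no filter on low counts all 24 did, with adjusted p from 0.00332 to 0.0487 (edgeR).

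**Figure D4:**
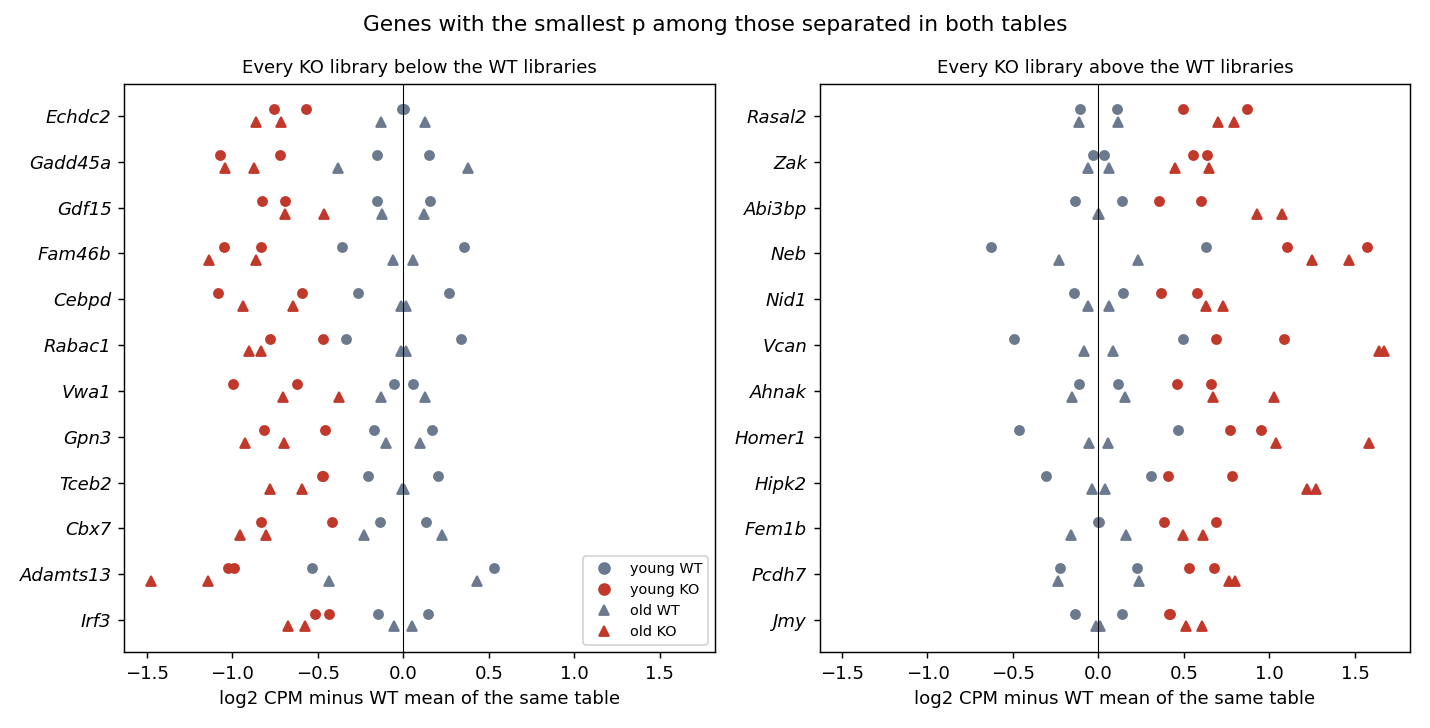
Log2 CPM of each library minus the mean of the WT libraries of its own table, for the 12 genes with the smallest p among those lower (left) and higher (right) in every KO library. Circles are young and triangles old libraries, grey WT and red KO; the genes were chosen for this separation, which is no test.

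In neither age, and in no test between the ages, did a gene pass the threshold. Among the young libraries 0 of 13975 genes (0.0%) had an adjusted p under 0.05, with 279 higher and 214 lower by unadjusted p, and DESeq2 called 6 higher and 0 lower. In the old table it was 0 (0.0%) as well, with 1329 higher and 1051 lower by unadjusted p and 304 higher and 134 lower in DESeq2. The test of the old against the young effect also gave 0 genes (0.0%, smallest adjusted p 0.303, edgeR), with 416 differences above and 204 below 0 by unadjusted p and 4 and 1 in DESeq2. Without old WT 7 the old table gave 1239 genes and without old WT 9 353. In both runs the old WT arm is 1 library, which is assumed to vary like the other groups, so these counts carry no replicate check of that arm. The correlation of log2 CPM between the old WT libraries was 0.94, against 0.987 for the old KO pair, 0.978 for the young WT pair and 0.988 for the young KO pair.

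The 9 genes with an adjusted p under 0.05 without the library labelled WT 9 were Gadd45a, Gdnf, Hsd11b1, Isg20 and Klk1b22 on the lower side and Gfra2, Lamb1, Mylk4 and Myo18b on the higher. Gdnf and Gfra2 encode a neurotrophic factor and a receptor of the same family. Gdnf had 104 and 99.2 CPM in young KO, 192 and 157 in young WT, 139 and 143 in old KO, and 255 in old WT 7. WT 9 stood at 137 CPM. Without WT 9 the log2 differences were −0.81 for Gdnf, −1.24 for Hsd11b1, which reactivates glucocorticoid, 1.21 for Gfra2 and 3.06 for the muscle kinase Mylk4, and with WT 9 they were −0.63, −0.99, 0.57 and 2.15. WT 9 stood at 27.8 CPM for Gfra2, above both old KO libraries, and at 2.16 CPM for Mylk4. DESeq2 on all 8 libraries gave an adjusted p under 0.05 to 6 of the 9.

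The 4-day values were set beside those of 2 other tables that share no library with them: young mice 30 days after tamoxifen (2 KO, 3 WT) and old mice of 22 months (3 KO, 3 WT, no interval given). Values came from 1 fit over all 19 libraries. In the 30-day table the column names carry run codes that differ between KO and WT, so that run and genotype cannot be told apart there. At 30 days Foxo1 stood at 9.91 and 9.65 CPM in KO and 58.5 to 73.7 in WT, further apart than at 4 days, while at 22 months it stood at 22.9 to 43.7 in KO and 32.2 to 60.2 in WT, with overlap. At 30 days 41 genes (0.271% of 15134) had an adjusted p under 0.05 (edgeR) and at 22 months 812 (5.37%). Of the 17 genes that fell at 30 days, 17 had a negative value at 4 days, with a median of −0.45 against −1.97 at 30 days. Of the 24 that rose, 18 had a positive value at 4 days, with a median of 0.31 against 2.66. Of the 445 that rose at 22 months, 299 (67.2%) were positive at 4 days with a median of 0.17. Of the 367 that fell 269 (73.3%) were negative with a median of −0.17. The share of all genes with either sign in this fit was not counted. With an unadjusted p under 0.05 at 4 days (edgeR), 10 of the 41 had the same sign and 0 the opposite. Among the 812 it was 61 and 3. Over all 15134 genes 358 were higher and 183 lower by that measure. Among FoxO targets Txnip, Cited2 and Ctdsp2 fell at 30 days. Their differences were −2.09 (SE 0.41) at 30 days and −0.20 (SE 0.34) at 22 months for Txnip, −1.78 (SE 0.31) at 30 days and −1.32 (SE 0.27) at 22 months for Cited2 and −1.57 (SE 0.23) at 30 days and −0.84 (SE 0.20) at 22 months for Ctdsp2, a nuclear phosphatase, against −0.66, −0.93 and −0.31 at 4 days. Vcan rose at both, by 1.94 at 30 days and 2.76 at 22 months. Gdf15 stood at −0.48 and 0.73, with adjusted p = 0.464 and 0.0636 (edgeR).

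**Figure D5:**
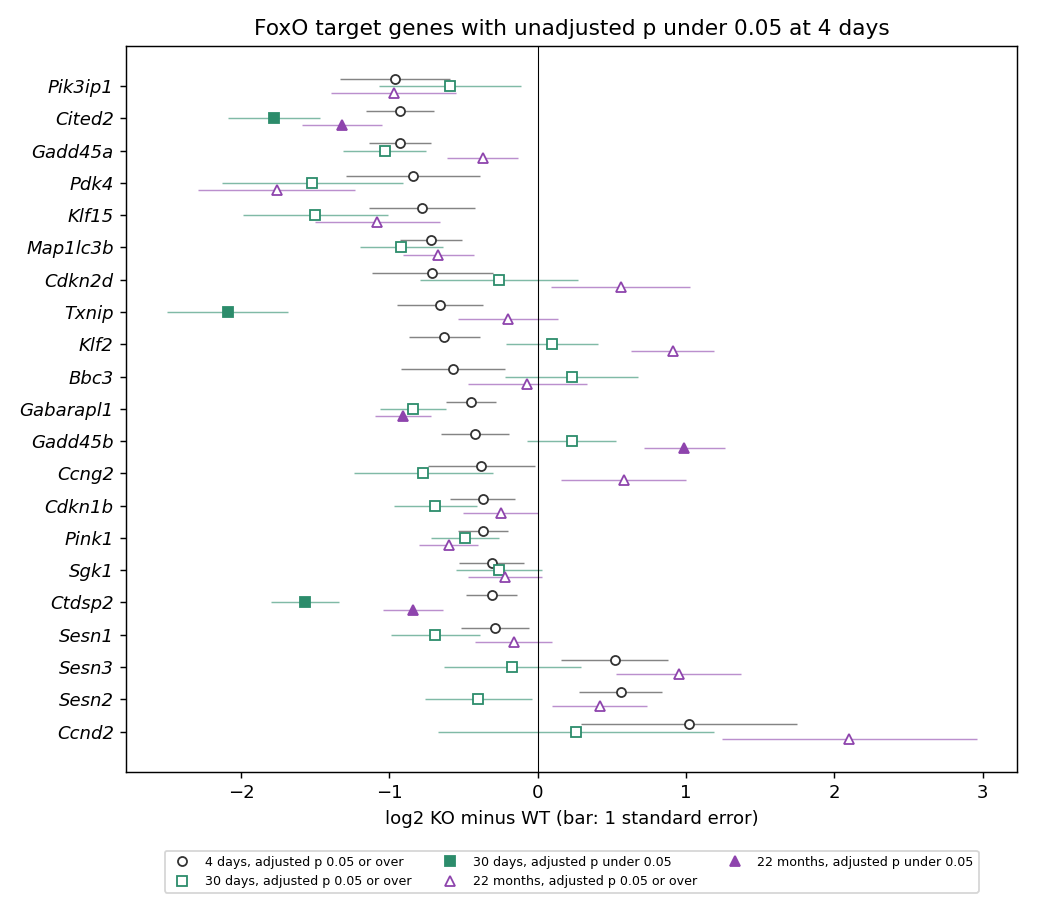
Log2 KO minus WT with 1 standard error, from the fit over 19 libraries, at 4 days (both ages), 30 days and 22 months, for the FoxO target genes with an unadjusted p under 0.05 at 4 days; filled symbols mark an adjusted p under 0.05. The genes were chosen at 4 days, and Cited2 and Ctdsp2 are filled at both other times.

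The difference between the effect at 4 days and the effect at the other times was tested in the same fit, where time goes together with the table. Against 30 days 0 of 15134 genes (0.0%) had an adjusted p under 0.05 (edgeR, smallest 0.303), with 406 above and 599 below 0 by unadjusted p and 9 and 30 in DESeq2. Foxo1 itself had an unadjusted p of 0.00398 for this difference. Against 22 months 49 genes (0.324%) had an adjusted p under 0.05 (edgeR), 14 with the higher and 35 with the lower effect at 4 days. The number lay between 4 (without old KO 5) and 44 when a 4-day library was left out. No 22-month library was left out. Dlk1, an imprinted ligand-like inhibitor of differentiation, had 149 to 386 CPM in the 3 KO libraries at 22 months and 4.65 to 8.23 in WT, against young KO 5.11 and 3.54 CPM, young WT 3.46 and 3.13, old KO 33.5 and 25.6, and old WT 12.7 and 35.4 at 4 days. Its difference was 0.36 at 4 days and 5.14 at 22 months. Vegfc, a lymphatic growth factor, had 0.632 to 3.92 CPM in KO and 23.2 to 31 in WT at 22 months, against young KO 15.7 and 14.6 CPM, young WT 22 and 15.3, old KO 9.93 and 11.6, and old WT 24.3 and 17.1 at 4 days. The difference was −0.60 at 4 days and −3.48 at 22 months.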

How the data were processed

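RNA from sorted cells was amplified from small inputs with a kit that does not keep strand, per the labels' protocols. The submitters' processing notes list TopHat2 2.1.1, HTSeq, Partek 7.0, bcl2fastq 2.17.1 and Trim Galore, and build mm10. How genes were annotated and reads assigned to them is not given in the sources used here. The deposited values are raw read counts per gene symbol. Columns were assigned to groups by table number and genotype in their names.

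The tables were joined on 24409 symbols, leaving out 12 that read as dates. Chromosomes came from GENCODE by symbol, then RefSeq (89 symbols had no chromosome). Exon lengths came from GENCODE only. Counts were scaled by TMM, filtered with filterByExpr (minimum count 10, minimum total 15), and tested with edgeR 4.0.16 in R 4.3.3 by the quasi-likelihood test, with the table as a block and Benjamini-Hochberg adjustment over genes not on X or Y. CPM are TMM-scaled. A second fit took in the 30-day and 22-month tables. DESeq2 1.42.0, other scaling, filters and left-out libraries were alternatives. The procedure was tested on simulated data.

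Members, gene lists and tests were chosen with earlier results of these data known. Named genes were to be those past the threshold with the largest changes, and of each list the 3 with the smallest p where none passed. Since none passed at 4 days, other genes named were chosen after their values were seen. No label says that libraries come from separate animals, so p-values measure only the spread between these libraries.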

Additional observations from a re-analysis of the deposited data

Results flagged for a closer look

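The KO effect differed between 4 days and 22 months, with an adjusted p under 0.05 in edgeR's quasi-likelihood test, in 8 of the genes named for this comparison. Time cannot be told apart from the table. The log2 effect at 4 days minus that at 22 months was −11.26 for Ifi202b (adjusted p = 1.97e-05), an interferon-inducible gene, −6.44 for Spon1 (0.0164), a secreted adhesion protein, −4.9 for Apod (0.022), an apolipoprotein, and −4.78 for Dlk1 (0.000463). It was 3.95 for Doc2b (0.0482), 2.88 for Vegfc (0.0345), 2.76 for Bves (0.0286) and 2.72 for Ano5 (0.0477). At 4 days alone, in the fit over the 8 libraries, the log2 KO minus WT was −0.98 for Ifi202b and −0.23 for Apod. It was 0.09 for Doc2b, −0.08 for Bves and 0.54 for Ano5. DESeq2 gave Ifi202b no adjusted p at 4 days. Leaving out each 4-day library in turn gave 8 runs. No 22-month library was left out, so these runs do not check that side of the difference. Ifi202b and Dlk1 kept an adjusted p under 0.05 in all 8, and Apod and Spon1 in 7 (largest adjusted p 0.0567 and 0.0553). Bves kept it in 1, and Ano5, Doc2b and Vegfc in 0, with adjusted p from 0.0927 to 0.178, 0.0749 to 0.152 and 0.052 to 0.12, while their differences ran from 2.51 to 2.75, 3.59 to 4.26 and 2.67 to 2.94.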

How the results depend on the processing

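The number of genes with an adjusted p under 0.05 over both ages, 0 in edgeR, was 577 with DESeq2, 418 with no filter on low counts, 1 with X and Y genes kept, and from 0 to 656 with 1 library left out (9 without old WT 9, 656 without young WT 2). DESeq2 and the unfiltered run shared 332 genes, 57.5% of the first and 79.4% of the second. In the young table it was 6 with DESeq2 and 1 with X and Y genes kept. In the old table it was 438 with DESeq2, 154 with no filter, and from 0 to 1239 with 1 library left out. The test between ages gave 5 with DESeq2, 2 with no filter and from 0 to 2 with 1 library left out. The test against 30 days gave 39 with DESeq2, 10 with no filter and from 0 to 1. The test against 22 months, 49 in edgeR, gave 403 with DESeq2, 352 with no filter and from 4 to 44. In both tests only libraries of 4 days were left out. The cause of these shifts was not tested. Of the 115 genes named in the text that had a fit, 103 kept their sign in each alternative that gave them a value (DESeq2 was run on 109). The other 12 changed sign in at least 1. With 1 library left out they ran from −0.17 to 0.02 for Bves, −0.2 to 0.44 for Doc2b, −0.13 to 0.23 for Foxo6, −0.15 to 0.14 for Kdm5d, −0.11 to 0.25 for Uty, −0.11 to 0.01 for Bcl2l11, −0.12 to 0.17 for Fbxo32, −0.13 to 0.23 for Igf1r, −0.11 to 0.19 for Irs2, −0.22 to 0.05 for Mxi1, −0.16 to 0.01 for Myod1 and −0.06 to 0.07 for Tcf7. With no filter Kdm5d and Tcf7 were at 0.02 and Fbxo32 at 0.03, and Fbxo32 was at 0.0 with DESeq2 or RLE scaling and at 0.01 with no block on the table. No paired analysis was possible because the old table's columns share no numbers between genotypes and no label ties the young table's columns to numbered samples.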
